A study of Mus musculus with 12 samples.

Results

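Kidneys of mice that had lost 1 copy of Mut were compared with kidneys of mice with both copies. The comparison took in 8 of the 12 arrays of the series, 4 titled Mut+/- (labelled MMA heterozygote) and 4 titled Mut+/+ (labelled MMA wild type). The arrays were chosen by their titles. Each gene was read from the probe set that carried a single gene symbol and had the highest mean over the 12 arrays, which gave 19934 genes. All animals were female, of C57BL/6 background, and had eaten a high protein diet for 2 months, so both groups shared the diet. Total RNA of whole kidney was hybridised to Affymetrix mouse gene arrays, and the design text gives 4 females per genotype. The 4 remaining arrays were of Mut -/- ;TgINS-Alb-Mut mice, which lack Mut and carry a transgene that supplies it from the albumin promoter in the liver. Their labels are the only ones that name the transgene. Ages, litters and any pooling of animals are not given in the sources used here. The array numbers in the sample descriptions run group by group, so any effect of processing order and of genotype cannot be told apart.

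Mut, listed under its current symbol Mmut, encodes methylmalonyl-CoA mutase. This mitochondrial enzyme uses adenosylcobalamin, a form of vitamin B12, to turn methylmalonyl-CoA into succinyl-CoA, which enters the tricarboxylic acid cycle. Methylmalonyl-CoA arises from propionate made in the breakdown of valine, isoleucine, methionine, threonine and odd-chain fatty acids, so a high protein diet raises the load on the enzyme. Loss of both copies causes methylmalonic acidemia, in which the proximal tubule of the kidney is damaged. Carriers of a single faulty copy are generally healthy.

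The 8 arrays resembled each other closely. Their correlations over all 35552 probe sets ran from 0.9904 to 0.9953, and the medians of the 12 arrays from 7.171 to 7.23 on the log2 scale. Kidney markers were present in both genotypes. The mean log2 signal of 13 proximal tubule markers was 12.19 to 12.23 in heterozygotes and 12.24 to 12.30 in wild type. For 7 thick ascending limb markers it was 11.34 to 11.50 against 11.41 to 11.58, and for 7 podocyte markers 8.57 to 8.62 against 8.58 to 8.65. The proximal tubule ranges did not overlap. In 4 of these 13 genes every heterozygote was below every wild-type mouse and in 1 the reverse, beside 5.26% and 3.18% of all genes. The median of the 13 was -0.064, and 0 were called by limma at an adjusted p under 0.05. In whole tissue, fewer cells of a type and less RNA per cell cannot be told apart.

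Mmut signal was lower in every heterozygote than in every wild-type mouse. The log2 signals of the 4 heterozygotes were 9.93, 9.90, 9.87 and 9.97, and those of the wild-type mice 10.47, 10.50, 10.56 and 10.60. The groups did not overlap, and the heterozygotes spread over only a fraction of the distance between them. The difference was -0.62 on the log2 scale (SE 0.06, n = 4 and 4), a 1.53-fold lower signal, with a limma adjusted p of 0.000801. A two-sided exact permutation test of the 4 against 4 values gave p = 0.0286, the smallest that this design allows. Any gene whose groups do not overlap gets this p, and 8.44% of all genes did not overlap. The mutants, at 8.47, 8.33, 8.20 and 8.42, lay below both groups. The labels do not say where the Mmut probes lie relative to the disrupted part of the gene, so the signal describes the probe set and not the amount of working enzyme.

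Across all genes, 27 passed a limma test at a Benjamini-Hochberg adjusted p under 0.05, which is 0.135% of the 19934 tested. Of these, 13 were higher in heterozygotes (0.0652%) and 14 lower (0.0702%). In all 27, the 4 heterozygote values lay entirely above or entirely below the 4 wild-type values, an arrangement found in 1683 genes overall (8.44%). The calls rest on the same values, so this arrangement is no separate support for them. At least a 1.5-fold difference was reached by 13 of the 27, beside 72 of all genes (0.361%), and at least a 2-fold difference by 5. The median log2 difference over all genes was 0.007. At an unadjusted p under 0.05, 2255 genes passed (11.3%). The same fit gave 1925 genes between mutants and wild type (9.66%) and 506 between mutants and heterozygotes (2.54%).

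The number of calls depended on single arrays. It was 8, 12, 18 and 8 without heterozygote replicates 1, 2, 3 and 4, and 67, 7, 6 and 5 without wild-type replicates 1, 2, 3 and 4. Leaving out a mutant array changes only the estimate of spread, and gave 21, 18, 55 and 26 for replicates 1 to 4. Klk1b22, Klk1b7-ps, Npy, Mmut and Vmn1r19 kept their call whichever 1 array was left out. The other 22 genes lost it without at least 1 array. Of the 27, 22 had an adjusted p between 0.02 and 0.05.

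**Figure D1:**
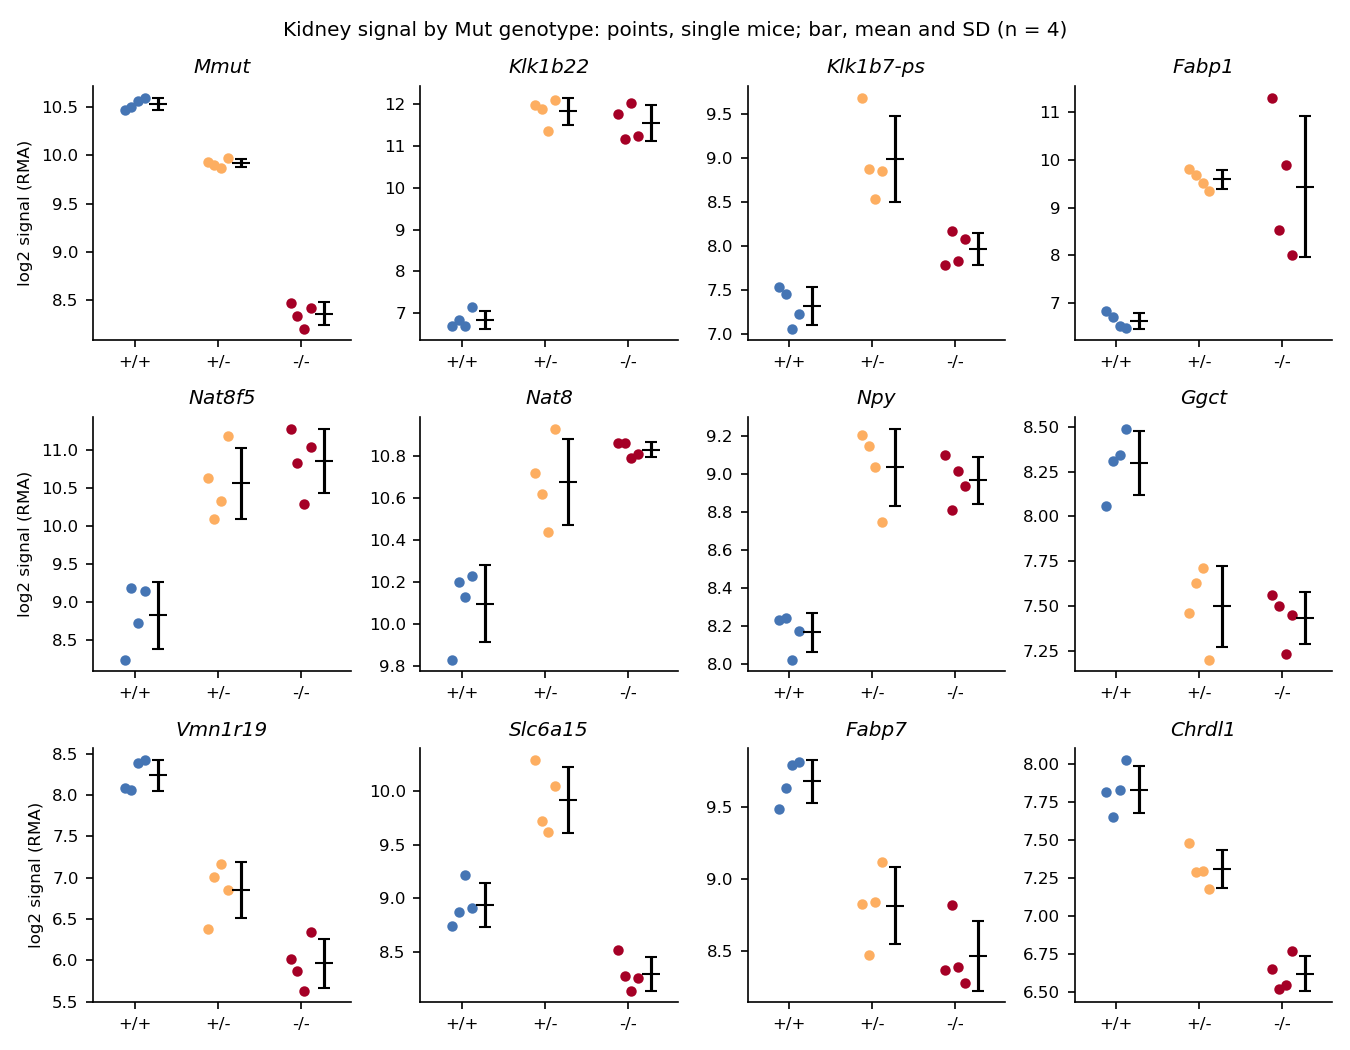
RMA log2 signal (vertical axes) of Mmut and 11 other called genes in wild-type (+/+), heterozygote (+/-) and mutant (-/-) kidneys. Each point is 1 mouse, and the bars give the mean and SD of 4. Heterozygotes and wild type do not overlap in any panel, while the Klk1b22 ranges of heterozygotes (11.37 to 12.10) and mutants (11.16 to 12.04) overlap.

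The largest rise was in Klk1b22, which encodes a glandular kallikrein, a secreted serine protease. Heterozygote log2 signals were 11.99, 11.89, 11.37 and 12.10, and wild-type signals 6.70, 6.83, 6.69 and 7.15. All 4 heterozygotes were thus far above the wild-type range. The difference was 4.99 (SE 0.20), or 31.9-fold, with a limma adjusted p of 1.79e-08. Mutants were at 11.76, 11.16, 12.04 and 11.23, within or close to the heterozygote range. Their difference from heterozygotes was -0.29 (95% interval -0.71 to 0.13, limma adjusted p = 0.554).

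Klk1b7-ps, a kallikrein pseudogene on chromosome 7 with 5 tested genes between it and Klk1b22, also rose. Its log2 signals were 9.69, 8.88, 8.54 and 8.85 in heterozygotes and 7.54, 7.46, 7.06 and 7.23 in wild type, a 3.19-fold difference (1.67, SE 0.19, limma adjusted p = 0.00394). Replicate 1 stood highest, and no heterozygote value reached down to the wild-type range. Mutants lay between the groups at 7.79, 8.17, 7.83 and 8.08. They were lower than heterozygotes by a called amount (-1.02, 95% interval -1.44 to -0.61, limma adjusted p = 0.0146) and differed from wild type by 0.65 (adjusted p = 0.0517).

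The kallikrein genes lie side by side on chromosome 7, and the other 8 measured genes of the Klk1b cluster were not called. The 5 genes between the called pair were Klk1b8 (0.22), Klk1b1 (0.13), Klk1b9 (0.13), Klk1b11 (-0.01) and Klk1b27 (0.26), each value a heterozygote minus wild-type log2 difference. Beyond Klk1b22, Klk1b16 differed by -0.03, Klk1b24 by 0.08 and Klk1b5 by -0.12. The called genes were thus separated by genes without a call, Klk1b27 and Klk1b16 being the direct neighbours of Klk1b22. Kallikrein genes share sequence, and how far the probes of one also read another was not tested. This family was grouped after its values were seen.

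**Figure D2:**
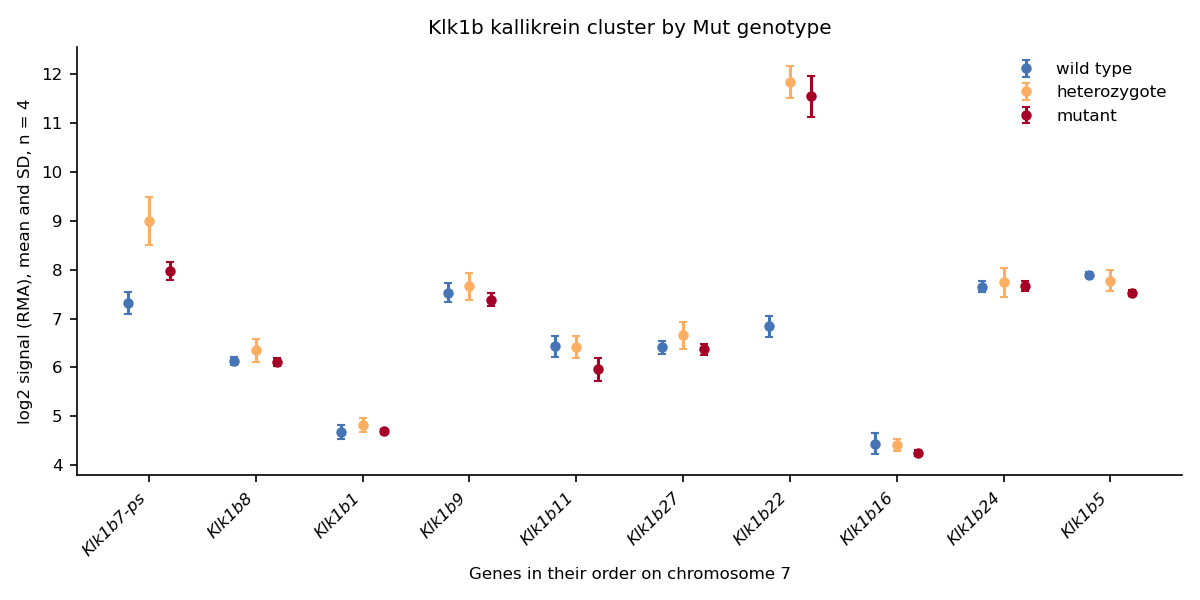
Mean RMA log2 signal with SD (n = 4 mice) of 10 Klk1b genes in their order on chromosome 7, by genotype. Klk1b22 stands at 11.84 in heterozygotes and 6.84 in wild type, and Klk1b7-ps at 8.99 and 7.32, while the other 8 genes differ between these groups by -0.12 to 0.26.

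Fabp1 encodes the liver fatty acid binding protein, a cytosolic carrier and a target of the fat-sensing receptor PPAR-alpha. Its log2 signals were 9.81, 9.69, 9.52 and 9.35 in heterozygotes and 6.84, 6.70, 6.52 and 6.47 in wild type. Both groups were tight and far apart, at 7.79-fold (2.96, SE 0.50, limma adjusted p = 0.0447). Mutants ranged widely, at 11.30, 8.53, 9.90 and 8.01, and this spread enters the shared SE. Their mean differed from that of heterozygotes by -0.16 (95% interval -1.24 to 0.92, adjusted p = 0.939). Leaving out any heterozygote array, or wild-type replicate 2, 3 or 4, ended the call (adjusted p up to 0.165).

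Nat8f5 and Nat8 are neighbours on chromosome 6 with no tested gene between them. Nat8 acetylates cysteine conjugates, the last step in making mercapturic acids, and is a kidney and liver enzyme, and Nat8f5 belongs to its family. Nat8f5 log2 signals were 10.64, 10.10, 10.33 and 11.19 in heterozygotes and 8.24, 9.19, 8.72 and 9.15 in wild type. Every heterozygote exceeded every wild-type mouse, by 3.35-fold on average (1.74, SE 0.26, limma adjusted p = 0.0248). Nat8 signals were 10.72, 10.62, 10.44 and 10.93 against 9.83, 10.20, 10.13 and 10.23. These ranges lie closer together, with a difference of 0.58 (SE 0.10, limma adjusted p = 0.0456).

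Mutant minus heterozygote differences were 0.30 for Nat8f5 (95% interval -0.27 to 0.86) and 0.15 for Nat8 (-0.07 to 0.37). The remaining family members were not called, with differences of 0.24 for Nat8f2, -0.11 for Nat8f4 and -0.10 for Nat8f1. Family members share sequence, so cross-reading of probes is possible and was not tested. The Nat8f5 call ended without heterozygote replicates 1 or 4 or wild-type replicates 2, 3 or 4 (adjusted p up to 0.115), and 9 different single arrays ended the Nat8 call when left out (up to 0.15).

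Stretches just upstream of the start sites of these genes, from RefSeq on GRCm38.p6, are shown because Nat8f5 and Nat8 rose as neighbours and Fabp1 rose on the same chromosome, and Klk1b22 is shown as the largest rise. Each runs 5′ to 3′ on the strand of its gene and ends at the base before the start site. Capitals mark 3 motifs searched on both strands: GTTAAT, the core site of HNF1 factors, AGGTCA, the core site of nuclear receptors that reads TGACCT on the other strand, and the TATA box TATAAA. HNF1 factors and nuclear receptors such as HNF4A are known regulators of genes shared by liver and proximal tubule.
Klk1b22, chr7:44112423-44112672, + strand: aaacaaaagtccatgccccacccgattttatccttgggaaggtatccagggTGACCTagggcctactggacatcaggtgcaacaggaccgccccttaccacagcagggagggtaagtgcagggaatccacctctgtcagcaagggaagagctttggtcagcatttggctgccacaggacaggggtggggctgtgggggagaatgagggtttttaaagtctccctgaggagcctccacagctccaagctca
Fabp1, chr6:71199629-71199878, + strand: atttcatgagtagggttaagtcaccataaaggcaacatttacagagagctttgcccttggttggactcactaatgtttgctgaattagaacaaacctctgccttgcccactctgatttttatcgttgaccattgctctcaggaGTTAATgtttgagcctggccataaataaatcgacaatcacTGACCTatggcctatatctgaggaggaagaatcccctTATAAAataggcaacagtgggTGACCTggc
Nat8f5, chr6:85820973-85821222, - strand: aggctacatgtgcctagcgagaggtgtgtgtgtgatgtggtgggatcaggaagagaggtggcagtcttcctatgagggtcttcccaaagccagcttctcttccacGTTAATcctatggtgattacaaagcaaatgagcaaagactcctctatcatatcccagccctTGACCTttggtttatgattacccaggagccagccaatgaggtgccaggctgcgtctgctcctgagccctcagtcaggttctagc
Nat8, second of 2 listed start sites, chr6:85832280-85832529, - strand: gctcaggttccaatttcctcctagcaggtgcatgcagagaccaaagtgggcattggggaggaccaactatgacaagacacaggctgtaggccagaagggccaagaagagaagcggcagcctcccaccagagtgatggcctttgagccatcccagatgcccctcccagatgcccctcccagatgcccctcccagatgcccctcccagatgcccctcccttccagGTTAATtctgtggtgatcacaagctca

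GTTAAT begins 107 bases upstream of the Fabp1 start, 145 bases upstream of Nat8f5 and 27 bases upstream of the second Nat8 start. Of 32851 RefSeq windows of the same 250 bases, 6.43% hold that motif on either strand. TGACCT begins 67 and 9 bases upstream of Fabp1, 84 upstream of Nat8f5 and 199 upstream of Klk1b22, and 14% of windows hold it or its reverse. TATAAA begins 30 bases upstream of Fabp1 and is held, in either direction, by 12.4% of windows. The first Nat8 start site and the stretch before Npy held none of the 3. These matches describe the letters and are not measured binding sites.

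Npy encodes neuropeptide Y, a peptide of nerves that also acts on renal vessels and tubules. Its log2 signals were 9.21, 9.15, 9.04 and 8.75 in heterozygotes and 8.23, 8.24, 8.02 and 8.17 in wild type. The lowest heterozygote was above the highest wild-type value, and the difference was 0.87 (SE 0.09, 1.83-fold, limma adjusted p = 0.00248). Mutants, at 9.10, 8.81, 9.02 and 8.94, differed from heterozygotes by -0.07 (95% interval -0.27 to 0.14).

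Slc6a15 encodes a sodium-coupled transporter of branched-chain amino acids and proline. Heterozygote log2 signals were 10.29, 9.72, 9.62 and 10.04, wild-type signals 8.74, 8.87, 9.22 and 8.91, and mutant signals 8.52, 8.28, 8.14 and 8.26. The heterozygotes were the highest of the 3 groups and the mutants the lowest, with no overlap. The heterozygote rise was 0.98 (SE 0.14, 1.98-fold, limma adjusted p = 0.021), while mutants lay below wild type by -0.64 (adjusted p = 0.0121). The call ended without heterozygote replicate 4 or wild-type replicates 2 or 4, with adjusted p up to 0.0988. In RefSeq the gene overlaps 6430590A10Rik.

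Smaller rises were seen in 3 more protein-coding genes. Alkal2, a ligand of the receptor kinases ALK and LTK, was 7.59 to 7.71 in heterozygotes and 7.26 to 7.39 in wild type (1.26-fold, limma adjusted p = 0.048), and overlaps Acp1 in RefSeq. Mutants, at 7.07 to 7.30, were lower than heterozygotes by a called -0.42. Tnfrsf10b, a death receptor for the ligand TRAIL and a p53 target, was 7.37 to 7.49 against 7.09 to 7.20 (1.24-fold, adjusted p = 0.047). Dmrt2, a DM-domain transcription factor, was 8.04 to 8.11 against 7.67 to 7.87 (1.23-fold, adjusted p = 0.0456). Each of these 3 calls was lost on removing any of 10 or 11 single arrays (adjusted p up to 0.179).

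Small RNAs were left out by the naming rule and are named after their values were seen. Of 54 small nucleolar RNAs 2 were called, and of 297 microRNA genes 1. All were called higher, beside 0.0652% of all genes. Snord118 (U8) is needed to process ribosomal RNA of the large subunit. Its log2 signals were 7.94, 7.44, 7.25 and 7.72 in heterozygotes, 6.88, 6.60, 6.46 and 6.66 in wild type and 8.64 to 9.24 in mutants. The 3 groups formed steps without overlap, with a heterozygote rise of 0.94 (SE 0.15, limma adjusted p = 0.0392) and a further 1.25 to the mutants (adjusted p = 0.00133). Snora33, a guide RNA for pseudouridine, rose by 0.63 (SE 0.10, adjusted p = 0.0299) with a further 0.64 in mutants. It overlaps Rps12 in RefSeq, so its signal may include that gene, which was not tested. Removing any of 7 single arrays for Snord118, and any of 6 for Snora33, ended the call (adjusted p up to 0.159).

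Over all 54 small nucleolar RNAs measured, 10 had every heterozygote above every wild-type mouse and 1 the reverse, against 3.18% and 5.26% of all genes. Their median log2 difference was 0.045, beside 0.007 over all genes.

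Mir6516 rose by 0.37 (limma adjusted p = 0.0392), from 7.59 to 7.77 in wild type to 7.91 to 8.14 in heterozygotes, and its gene overlaps Snhg20. The array reads the gene and not the mature microRNA. The mature sequences from RefSeq, with the seed (bases 2 to 8) in capitals, are given because this is the called microRNA gene, and its 2 arms carry different seeds.
miR-6516-5p: uUUGCAGUaacagguguggaca
miR-6516-3p: uCAUGUAUgauacugcaaacag

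Among the falls, Vmn1r19, a pheromone receptor gene of the vomeronasal organ named after its values were seen, was the largest among called genes. Its log2 signals were 6.38, 7.01, 7.17 and 6.85 in heterozygotes, 8.09, 8.06, 8.39 and 8.42 in wild type and 6.01, 5.87, 5.63 and 6.34 in mutants. Each genotype occupied its own range. The heterozygote difference was -1.39 (SE 0.17, 2.62-fold lower, limma adjusted p = 0.00515), and mutants lay a further -0.89 below (adjusted p = 0.0146).

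Ggct encodes gamma-glutamylcyclotransferase, which acts in the glutathione cycle that also runs in proximal tubule. Signals were 7.46, 7.63, 7.71 and 7.20 in heterozygotes against 8.06, 8.31, 8.34 and 8.49 in wild type. The difference was -0.80 (SE 0.11, 1.74-fold lower, limma adjusted p = 0.021), and mutant minus heterozygote was -0.07 (95% interval -0.31 to 0.18). The call ended without heterozygote replicate 1 or wild-type replicates 2, 3 or 4 (adjusted p up to 0.0988).

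Fabp7, the brain-type fatty acid binding protein, moved opposite to Fabp1. It was 8.83, 8.47, 8.84 and 9.12 in heterozygotes and 9.49, 9.63, 9.79 and 9.81 in wild type, a difference of -0.86 (SE 0.14, limma adjusted p = 0.0329). The remaining 7 Fabp genes were not called. Serpina1c, of the alpha-1-antitrypsin family of protease inhibitors, was 4.77 to 5.07 against 5.53 to 6.00 (-0.88, SE 0.13, adjusted p = 0.0215), near the low end of the scale. Its means lay below 6 in both groups, so it is named after its values were seen. Its measured relatives Serpina1d (-0.51, adjusted p = 0.659) and Serpina1f (-0.36, adjusted p = 0.456) were not called. Each of the Fabp7 and Serpina1c calls was lost on removing any of 6 single arrays (adjusted p up to 0.139).

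Chrdl1, a secreted antagonist of bone morphogenetic proteins, stepped down across the genotypes. Signals were 7.48, 7.29, 7.30 and 7.18 in heterozygotes, 7.82, 7.65, 7.83 and 8.03 in wild type and 6.52 to 6.77 in mutants. The heterozygote fall was -0.52 (SE 0.08, limma adjusted p = 0.0392), with a further -0.69 to the mutants (adjusted p = 0.00133). Kif23, a kinesin of cytokinesis, fell by 0.55 (adjusted p = 0.0329), from 7.92 to 8.10 in wild type to 7.43 to 7.53 in heterozygotes. Churc1, a zinc-binding transcriptional regulator, fell by 0.51 (adjusted p = 0.0392), from 10.23 to 10.67 to a range of 9.82 to 10.01.

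Cyp4f14, a cytochrome P450 that hydroxylates leukotriene B4, fell by 0.37 (limma adjusted p = 0.0456), from 7.87 to 8.09 in wild type to 7.49 to 7.69 in heterozygotes, and mutants were lower than heterozygotes by a further -0.37 (adjusted p = 0.00923). Phyhip, whose protein binds phytanoyl-CoA hydroxylase, fell by 0.32 (adjusted p = 0.0456), from 7.78 to 7.91 to a range of 7.40 to 7.61, with a further -0.35 in mutants (adjusted p = 0.00607). The uncharacterised gene 1700019D03Rik, named after its values were seen, had a difference of -0.48 (adjusted p = 0.0215). For these 6 genes from Chrdl1 onward, between 5 and 10 single arrays ended the call when left out (adjusted p up to 0.172).

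Sucla2 is the other called gene, beside Mmut, of the propionate and cobalamin list. It encodes a subunit of succinyl-CoA ligase, which uses the succinyl-CoA that the mutase makes. Signals were 10.55, 10.61, 10.46 and 10.61 in heterozygotes and 10.80, 10.85, 10.92 and 10.98 in wild type, without overlap. The difference was -0.33 (SE 0.06, 1.26-fold lower, limma adjusted p = 0.0392). Mutants, at 10.37, 10.37, 10.43 and 10.48, differed from heterozygotes by -0.14 (95% interval -0.26 to -0.03, adjusted p = 0.206). Removing any of 9 single arrays ended the call (adjusted p up to 0.15).

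The comparisons share arrays: mutants against heterozygotes uses the same heterozygotes, and mutants against wild type the same wild-type mice, so their values are given side by side only. Of the 27 genes, 10 were called between mutants and heterozygotes (2.54% of all genes were) and 17 were not. Of the 10, 2 were higher in mutants than in heterozygotes (1.07% of all genes were) and 8 lower (1.46%). In Mmut, Snord118, Snora33, Vmn1r19, Chrdl1, Cyp4f14 and Phyhip the mutant was further from wild type than the heterozygote. In Klk1b7-ps, Slc6a15 and Alkal2 the mutant lay on the same side of the heterozygote as wild type did. Over all genes, arrays did not overlap in 14.7% between mutants and wild type and in 9.69% between mutants and heterozygotes. For the 17, a missed threshold does not show equal levels. Mutant minus heterozygote was -0.00 for Tnfrsf10b (95% interval -0.12 to 0.11) and -0.03 for Rhobtb2 (-0.18 to 0.11). Intervals as narrow lay off 0 for Sucla2 (-0.26 to -0.03) and Mir6516 (0.07 to 0.34), neither of them called.

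**Figure D3:**
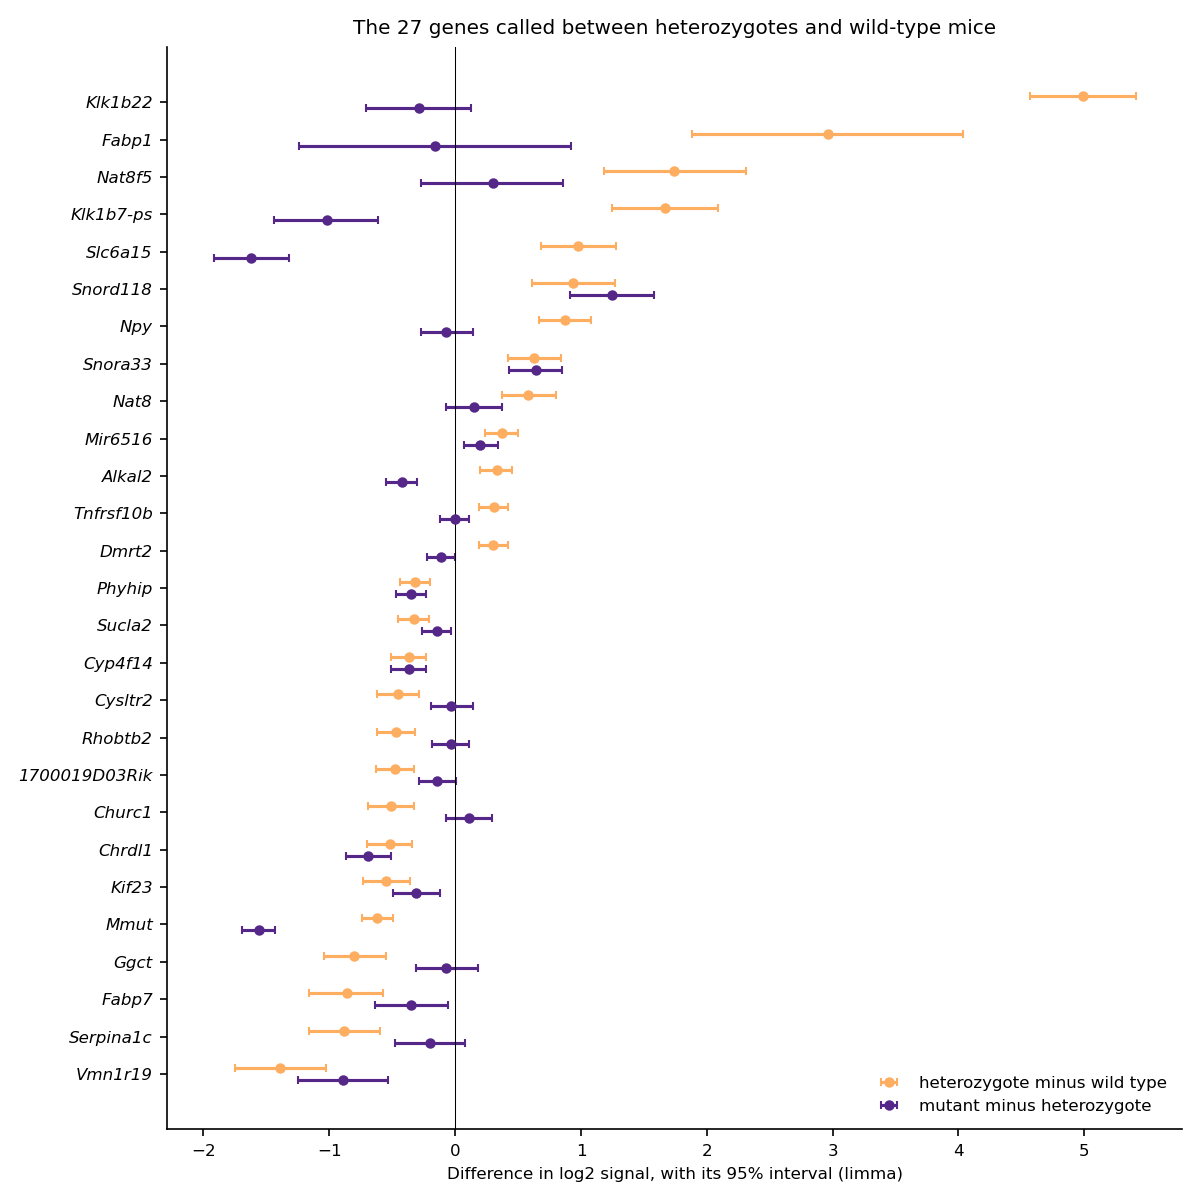
Differences in log2 signal with 95% limma intervals for the 27 called genes, heterozygote minus wild type (orange) and mutant minus heterozygote (purple). Intervals of the second comparison cover 0 for Klk1b22, Fabp1, Nat8f5 and Npy, and lie on the same side of 0 as the first for Mmut, Snord118, Vmn1r19 and Chrdl1.

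The chromosome around Mmut was examined for linked changes. Genes near an altered allele are inherited with it, so neighbours can differ between genotypes together with the target. Of the 50 tested genes on each side of Mmut on chromosome 17, 0 of 100 were called by limma. At an unadjusted p under 0.05, 14 of the 100 passed (11.3% of all genes did), and in 9 the arrays of the groups did not overlap (8.44% of all genes). The sides differed in how much they could show. Of the 50 genes before Mmut in order, where olfactory receptor genes lie, 10 had a group mean of at least 6, and 1 had arrays without overlap. Of the 50 genes after it, 44 had such a mean, and 8 (16%) were lower in every heterozygote than in every wild-type mouse, beside 5.26% of all genes, with none the reverse. These 8, named after their values were seen, were Adgrf2, Adgrf5, Enpp5, Tmem63b, Mrpl14, Polh, Polr1c and Abcc10, with log2 differences of -0.20 to -0.08. The 5.26% covers genes of every signal level, and no share among genes of like signal was taken. The 16% on this side is therefore a description, and a linked change was not tested. Over both sides, differences ran from -0.39 (Adgrf1) to 0.26 (BC040756) around a median of 0.022, and the smallest adjusted p was 0.24 (Slc29a1). These 3 genes are named as extremes after their values were seen. Taking 25 or 100 genes on each side also gave 0 called genes. With 25 on each side, 4 of 50 did not overlap (8%), 1 higher and 3 lower in heterozygotes. With 100 it was 17 of 200 (8.5%), 7 higher and 10 lower. The nearest called gene was Cyp4f14, with 226 tested genes between it and Mmut. The genes placed next to each other here follow RefSeq order on GRCm38.p6.

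Called genes lay on 11 of the 20 chromosomes with more than 100 tested genes, and 9 had none. Outside chromosomes 6, 7, 14 and 17, Slc6a15, Fabp7 and Snora33 lie on chromosome 10, Alkal2, Churc1 and Serpina1c on 12, Snord118 and Mir6516 on 11, Kif23 on 9, Dmrt2 on 19, Chrdl1 on X and 1700019D03Rik on 1. Chromosome 6 held 6 of them among 1101 tested genes (0.545%) and chromosome 14 held 5 of 702 (0.712%), beside 0.135% overall. Without any 1 array the chromosome 6 count ran from 2 (without heterozygote replicate 1 or wild-type replicates 2, 3 or 4) to 10 (without wild-type replicate 1), and was 3 without heterozygote replicate 4. On chromosome 14 it was 0 without heterozygote replicates 1 or 3 or wild-type replicates 2, 3 or 4. It was 1 there without heterozygote replicates 2 or 4, 2 without mutant replicates 1 or 2 and 3 without wild-type replicate 1. On chromosome 6 they ran in the order Npy, Ggct, Vmn1r19, Fabp1, Nat8f5 and Nat8, with 43, 28, 60, 103 and 0 tested genes between them. In this span of 240 tested genes, 39 (16.2%) had arrays that did not overlap, 16 higher and 23 lower in heterozygotes, and the median difference was -0.014. Over the whole of chromosome 6 that share was 8.36%. The span was set by the called genes, so these shares are a description. In it, 8 immunoglobulin kappa genes were all higher in heterozygotes (0.34 to 1.76), 3 of them at an unadjusted p under 0.05, and none was called by limma (smallest adjusted p 0.215). Their mean log2 signal was 6.09, 6.23, 8.29 and 6.95 in heterozygotes and 5.68 to 6.32 in wild type, so replicates 3 and 4 stood highest. Without these 8 genes, 38 of 232 (16.4%) did not overlap.

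On chromosome 14 the called genes were Tnfrsf10b, Rhobtb2, Phyhip, Cysltr2 and Sucla2, with 0, 12, 14 and 6 tested genes between them, and a window of 50 neighbouring genes held all 5. Rhobtb2, a BTB-domain protein, was 7.67, 7.87, 7.68 and 7.88 in heterozygotes and 8.14, 8.33, 8.16 and 8.36 in wild type (-0.47, SE 0.07, limma adjusted p = 0.0215). Its neighbour Tnfrsf10b went the other way, and Phyhip fell, as given above. Cysltr2, a receptor for cysteinyl leukotrienes, was 4.98 to 5.19 against 5.43 to 5.62 (-0.45, SE 0.08, adjusted p = 0.0442), at the low end of the scale, and overlaps Gm9199 in RefSeq. Removing any of 5 single arrays ended the Rhobtb2 call, and any of 9 the Cysltr2 call (adjusted p up to 0.172).

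In the 37 tested genes from Tnfrsf10b to Sucla2, 9 (24.3%) did not overlap between genotypes, 2 higher and 7 lower, beside 9.97% over chromosome 14 and 8.44% of all genes. The called genes bound this span and account for 5 of the 9, so the share is a description. A window of 25 genes with Tnfrsf10b, Rhobtb2 and Phyhip held 9 such genes. A window of that size on chromosome 12 also held 9, and none held more. Besides the called 3, those of the chromosome 14 window were Stc1 (-0.23), Entpd4 (-0.27), Pdlim2 (-0.10), Ppp3cc (-0.13), Chmp7 (0.11) and Slc39a14 (0.19). None of these was called, and all were named after their values were seen. Higher and lower genes were thus mixed within the segment, and the median of the chromosome 14 window was 0.050. Over all windows of 25 genes the median ran from -0.12 to 0.10.

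**Figure D4:**
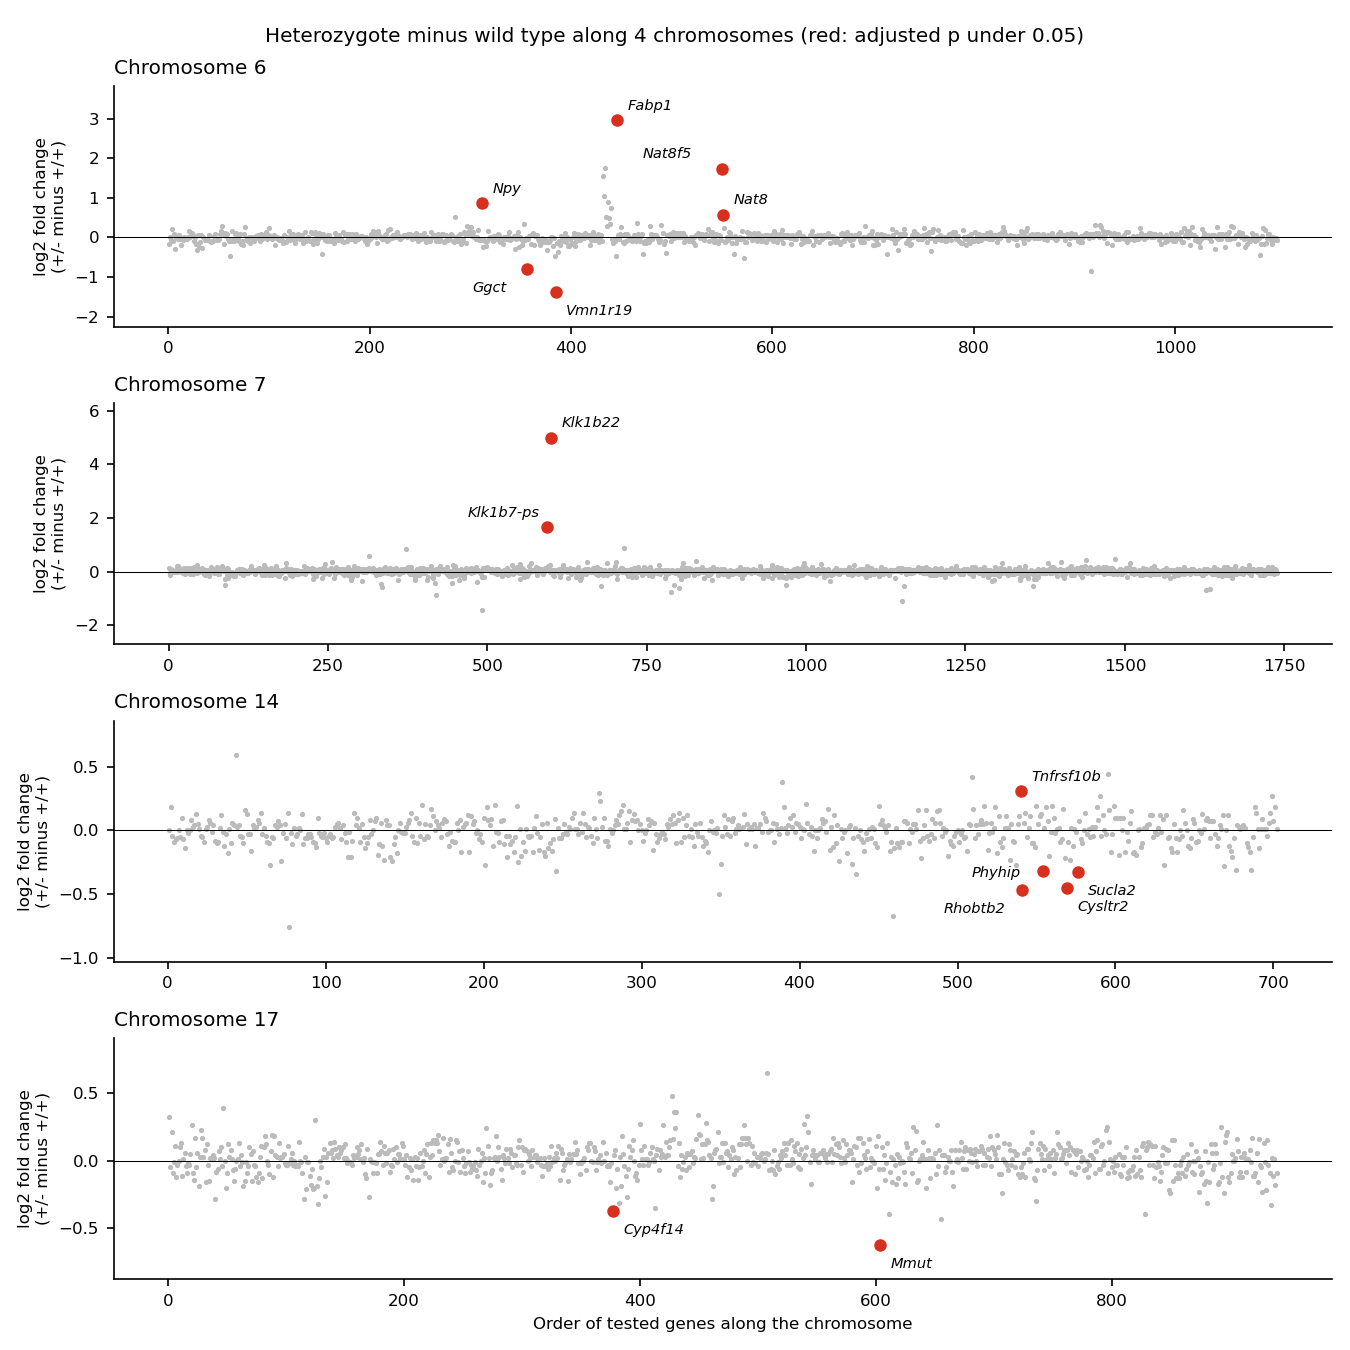
Log2 difference, heterozygote minus wild type (vertical axes), for tested genes in RefSeq order along chromosomes 6, 7, 14 and 17 (horizontal axes, rank of the gene). Grey points are genes without a call and red points called genes. Chromosome 6 has 6 red points, chromosome 14 has 5, and the genes on either side of Mmut on chromosome 17 are grey.

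Pathways of the kidney and of the enzyme were described with 46 gene lists, 27 of pathways and 19 of cell type markers. Of their 838 measured genes, 7 were called (0.835%, beside 0.135% of all genes), in lists written with earlier results of these data known, and 40 lists held no called gene. The 7 were Mmut and Sucla2 (propionate and cobalamin), Fabp1 (fatty acid oxidation and PPAR-alpha targets), Klk1b22 (hormone-responsive kidney genes), Kif23 (cell cycle), Tnfrsf10b (p53 targets) and Cyp4f14 (cytochrome P450 enzymes). List medians lay above 0 in 24 lists and below in 22, and 6 were at least 0.1 from 0 on the log2 scale.

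In the propionate and cobalamin list, 2 of 23 genes were called, both lower, and the median was -0.037. Pccb, a subunit of propionyl-CoA carboxylase that feeds the pathway, was 10.38 to 10.52 in heterozygotes and 10.15 to 10.34 in wild type (0.19, limma adjusted p = 0.205). Mcee, the epimerase just before the mutase, was 11.88 to 12.03 against 12.04 to 12.12 (-0.14, adjusted p = 0.29). Neither was called. Of 20 branched-chain amino acid enzymes, 0 were called and 3 passed an unadjusted p under 0.05 (1 higher, 2 lower). Of 20 tricarboxylic acid cycle genes, 0 were called and 1 passed it.

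Respiratory chain genes were not called either. Complex I had 0 of 34 called with a median of -0.071, and 9 lower at an unadjusted p under 0.05 with none higher. Complexes III to V had 0 of 34 called with a median of -0.043. Cytosolic ribosomal proteins tilted the other way, with 0 of 34 called, a median of 0.092, and 12 higher at an unadjusted p under 0.05 with none lower. Over all genes 4.5% passed that threshold higher and 6.81% lower.

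Fatty acid oxidation genes other than Fabp1 were not called, and the list of 30 had a median of 0.032. Cholesterol and lipid synthesis had the lowest pathway median, -0.184, with 0 of 23 called and 7 lower and 1 higher at an unadjusted p under 0.05, beside 6.81% and 4.5% of all genes. Scd1, which desaturates fatty acids, had a mean of 12.64 in heterozygotes and 13.19 in wild type (-0.55, limma adjusted p = 0.219). Sc5d, a late enzyme of cholesterol synthesis, had 9.29 against 9.69 (-0.40, adjusted p = 0.217). Both were named after their values were seen.

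By unadjusted p, injury genes were close to the background of all genes. In the tubular injury and repair list 0 of 27 were called by limma, 3 passed an unadjusted p under 0.05 (11.3% of all genes did) and the median was 0.023. In 3 of the 27 every heterozygote exceeded every wild-type mouse and in 1 the reverse, beside 3.18% and 5.26% of all genes. Havcr1 (KIM-1), a marker of damaged proximal tubule, ranged from 6.25 to 8.86 in heterozygotes and from 6.06 to 6.60 in wild type, with means of 7.52 and 6.31 (limma adjusted p = 0.442). Lcn2 (NGAL), another injury marker, was 7.76 to 8.31 in heterozygotes and 7.01 to 7.38 in wild type, a difference of 0.74 (adjusted p = 0.593). The Lcn2 ranges did not overlap, although the shared estimate of spread leaves it far from the threshold. In mutants Lcn2 differed from wild type by 2.95 (adjusted p = 0.00272) and Havcr1 by 2.05 (adjusted p = 0.0359).

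Among hormone-responsive kidney genes, Klk1b22 was the only one of 25 called. Akr1c18, a hydroxysteroid dehydrogenase that inactivates progesterone, was 9.34 to 11.34 in heterozygotes and 11.04 to 11.77 in wild type (-1.11, limma adjusted p = 0.285). Kap, the androgen-regulated kidney protein, had means of 13.10 and 13.27 (adjusted p = 0.883). In mutants Akr1c18 differed from wild type by -4.87 and Kap by -2.65, both called.

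Cell type marker lists held 0 called genes of 19 lists. B and plasma cell markers had the highest median of any list, 0.542, with all 8 genes higher in heterozygotes, 4 of them at an unadjusted p under 0.05. Their mean log2 signal was 7.14, 7.22, 8.14 and 7.75 in heterozygotes and 7.13, 6.99, 7.12 and 6.89 in wild type. Replicates 3 and 4 were thus well above wild type, while replicates 1 and 2 lay just above the highest wild-type mouse. Adipocyte markers had the lowest median, -0.244, with 8.07 to 8.22 in heterozygotes and 8.92, 8.16, 8.01 and 8.59 in wild type, where replicates 1 and 4 were high. Macrophage markers had a median of 0.165 and overlapping ranges, 7.52 to 7.93 against 7.41 to 7.66. The part of these markers in the called genes was not tested.

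**Figure D5:**
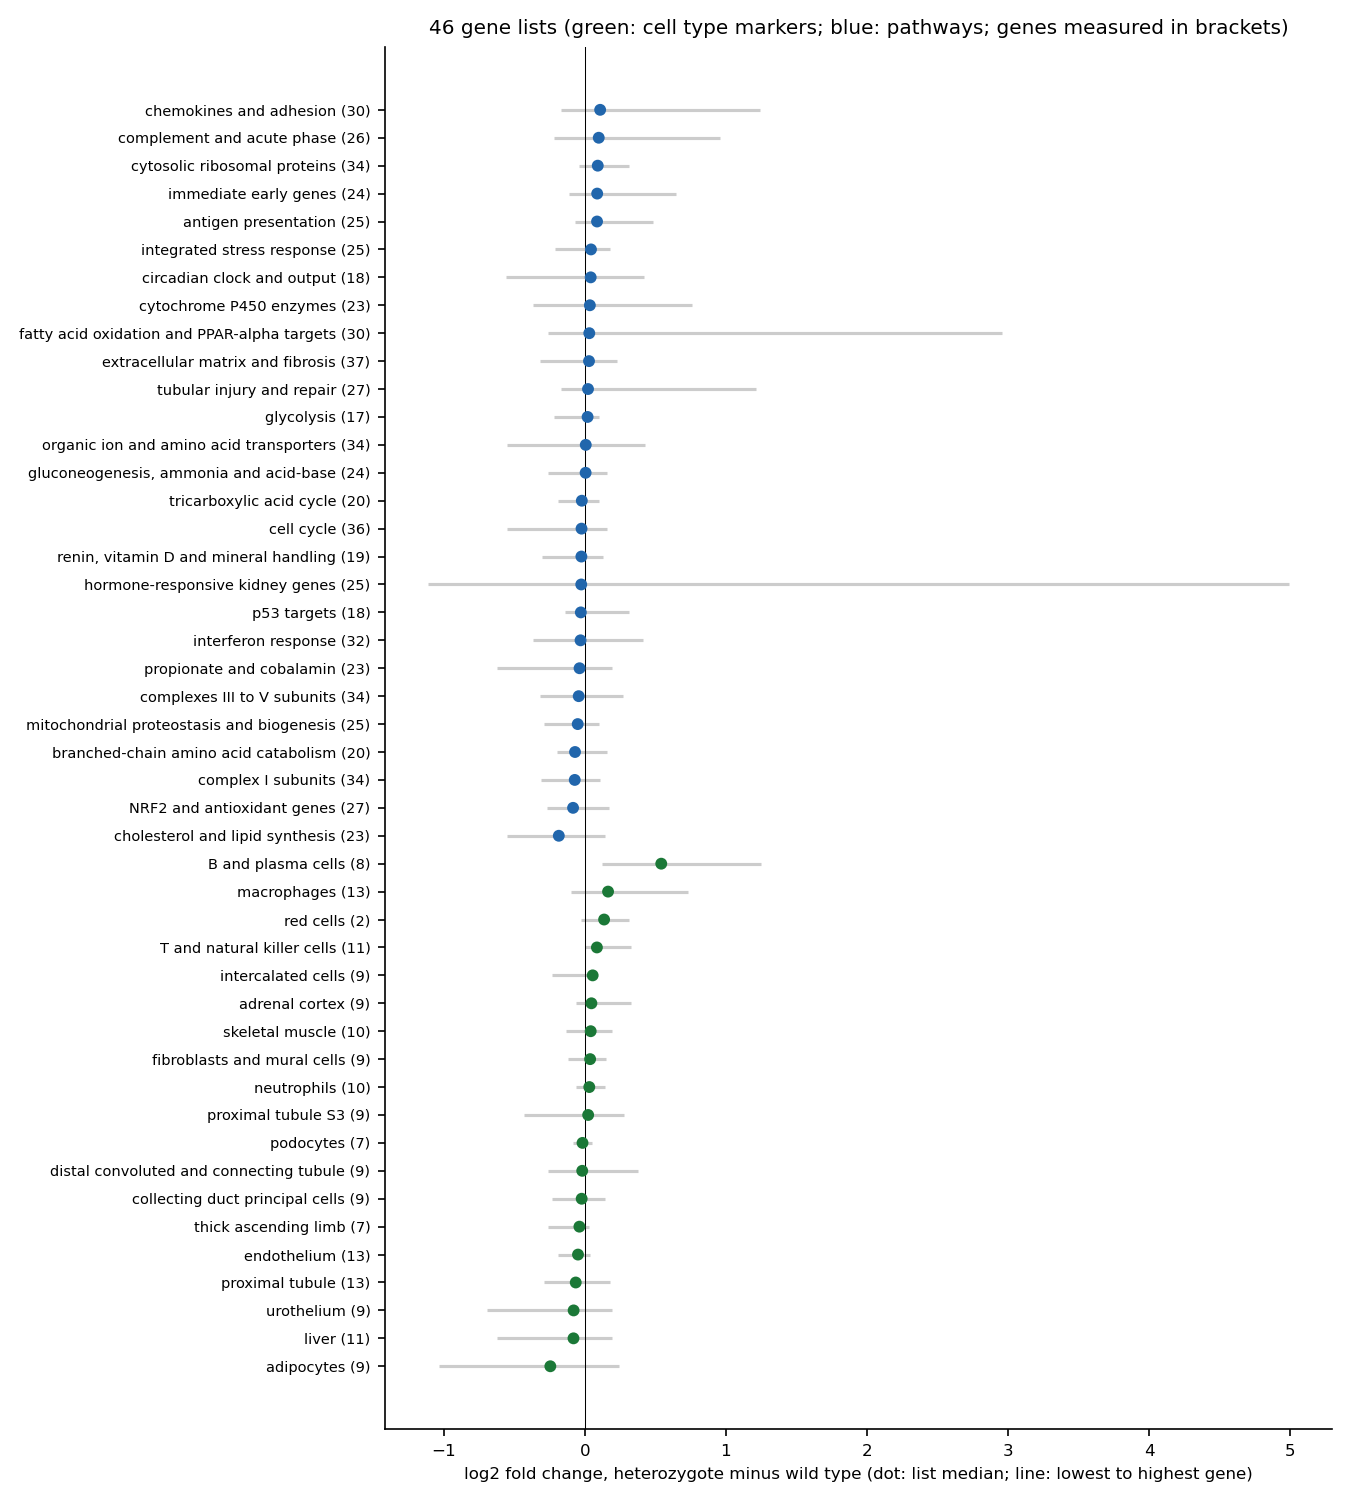
Median log2 difference, heterozygote minus wild type (dots), and the lowest to highest gene (lines) of 46 gene lists, with the number of genes measured in brackets. Green marks cell type markers and blue pathways. Medians run from -0.244 (adipocytes) to 0.542 (B and plasma cells), and the longest lines end at Klk1b22 (4.99) and Fabp1 (2.96).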

How the data were processed

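The authors deposited RMA log2 values of 35552 probe sets, made in Expression Console 1.2.1 according to the tools that the submitters' processing notes list. RMA equalises array distributions and compresses differences near background. Precision is limited by the number of arrays. The labelling text in the labels names a human array, and the sample descriptions a mouse one. No label names a build for the probe sets. Platform annotation gave 1 symbol to 21785 probe sets, and 13767 with several or none were left out of gene tests. Groups came from titles. R 4.3.3 and limma 3.58.1 (lmFit, eBayes) fitted 3 groups without covariates (9 residual degrees of freedom), with Benjamini-Hochberg adjustment over 19934 genes. The code was tested on simulated data. RefSeq GRCm38.p6 gave gene order, and 19 genes were not placed. The limma p-values set each group difference against the spread between arrays within groups, estimated over all 3 groups. The naming rule took called genes without overlap and with a group mean of at least 6 in either group, the 12 largest each way, and added Mmut, called neighbours, called genes of the 4 windows with most calls and up to 3 called members per list. Small RNAs, unnamed models, immunoglobulin segments and olfactory or vomeronasal receptors were excluded. Genes named without a call, and the families, were chosen after their values were seen. Members and lists were chosen with earlier results of these data known. Same-numbered heterozygote and wild-type arrays did not deviate together (correlations 0.032, -0.23, -0.032 and 0.039).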

Additional observations from a re-analysis of the deposited data

Results flagged for a closer look

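In 4 of the 81 groups of 4 arrays behind the called genes, 1 array stood apart from the other 3, and chance alone would give about 1 in 20. Snora33 was 8.50 in mutant replicate 3 and 8.61 to 8.63 in the other mutants. Tnfrsf10b was 7.57 in mutant replicate 2 and 7.38 to 7.40 in the others. Rhobtb2 was 7.83 in mutant replicate 1 and 7.70 to 7.72 in the others. Serpina1c was 5.07 in heterozygote replicate 2 and 4.77 to 4.81 in the others, all below the wild-type range of 5.53 to 6.00.

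Outside the gene comparison, 10 probe sets with no or several gene symbols were called by limma between heterozygotes and wild type when p-values were adjusted over all 35552 probe sets, 8 higher and 2 lower. Of these, 7 list the same 6 gene models and rose by 1.62 to 1.90 on the log2 scale, each with an adjusted p of 0.0482, and share sequence, so they are not separate observations. Their mean was 9.57, 9.10, 9.34 and 9.52 in heterozygotes, 9.17 to 9.85 in mutants and 7.35, 7.31, 8.56 and 7.16 in wild type. Wild-type replicate 3 stood apart at 8.56 from the 7.16 to 7.35 of the other wild-type mice and remained below every heterozygote. The other 3 called probe sets are not listed in the annotation.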

How the results depend on the processing

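Mmut was lower and called under every alternative run, at -0.64 to -0.59 without any 1 array, and 0 genes among its 100 neighbours were called in any. No called gene changed direction. The number of calls moved more. Without any 1 array it ran from 5 to 67, with 3 to 21 called genes higher in heterozygotes and 2 to 52 called genes lower in heterozygotes. With only heterozygote and wild-type arrays in the fit there were 78 calls (28 higher, 50 lower), which held all 27. Array weights gave 163 (48 and 115), and a trended and robust prior 42, of which 30 were lower. Testing every probe set gave 20 calls, 12 higher and 8 lower, of which 10 were probe sets left out of the gene comparison, and 9 of the 27 genes were among the calls. Asking for at least 1.5-fold left 13 (8 and 5), and an adjusted p under 0.01 left 5 (3 and 2). Centring array medians gave 23 calls, quantile normalisation 24, a group mean of at least 6 gave 24 and averaging probe sets 28. With the replicate number as a block, 7 genes were called (4 higher, 3 lower), all 7 among the 27. The titles number the replicates without saying whether the numbers pair mice. A stricter threshold leaves fewer calls by construction, and the other causes were not tested. Values near the low end of the scale, such as Serpina1c and Cysltr2, carry no detection call here.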

Other observations

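Serpina3n, an acute phase protease inhibitor, and Gstm2, a glutathione transferase, came closest to a call among the genes listed for acute phase and for antioxidant defence. Serpina3n was higher in heterozygotes by 0.96 on the log2 scale (limma adjusted p = 0.0796) and Gstm2 lower by -0.27 (adjusted p = 0.0804). In the chemokine list 0 of 30 genes were called, but in 7 every heterozygote exceeded every wild-type mouse and in 0 the reverse, beside 3.18% and 5.26% of all genes. Cxcl13, which attracts B cells, had the largest difference of that list, with means of 8.38 ± 0.59 and 7.14 ± 0.22 (SD, n = 4 each, limma adjusted p = 0.351). Among circadian genes, Per2 was higher by 0.42 (adjusted p = 0.158), and the lowest difference was that of Nr1d1 at -0.56. The labels give no time of day for tissue collection. All of these were named after their values were seen.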
